A study of Homo sapiens with 6 samples.

Results

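Keratins are the intermediate filament proteins of epithelial cells, and the 10 genes described here are those used to separate basal from luminal urothelium and bladder cancer: KRT5, KRT6A, KRT7, KRT8, KRT13, KRT14, KRT17, KRT18, KRT19 and KRT20. They were taken by symbol, and all 10 were found among the 50868 genes with values. In the study, the long noncoding RNA LNMAT1 was depleted by shRNA in 2 established human lines derived from bladder cancers, named UM-UC-3 and 5637, and RNA was sequenced to look for genes that changed. Each line carried sh-NC (a negative control hairpin), sh-LNMAT1#1 or sh-LNMAT1#2, delivered by lentivirus and kept under puromycin until stably expressing lines were obtained, so every library, controls included, came from infected and selected cells. There was 1 library per construct and line, 6 in all, and nothing in the labels says that any condition was repeated in a separate culture. The medium was DMEM for UM-UC-3 and RPMI for 5637, so that line and medium cannot be told apart.

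A keratin filament is built from pairs, each of 1 type I and 1 type II chain, and a cell therefore needs keratins of both types. KRT8 (type II) and KRT18 (type I) form the filament of simple epithelia and are the first keratins made in the embryo, and KRT7 and KRT19 accompany them in the urothelium. KRT5 (type II) and KRT14 (type I) are the pair of basal cells of stratified epithelia, KRT17 and KRT6A are made in basal and stressed or wounded epithelium, KRT13 marks the suprabasal layers, and KRT20 marks the umbrella cells of the urothelial surface. The type II members and KRT18 lie in the keratin cluster of chromosome 12, and the other type I members lie in that of chromosome 17.

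Values were deposited as FPKM (fragments per kilobase of exon, scaled to the depth of the library). Whole fragments could be worked back from them, and the depth that this implies was 19375000 to 24707000 fragments per library. LINC01296, listed under a symbol that RefSeq gives as another name of LNMAT1, stood at 14.2 FPKM in UM-UC-3 sh-NC against 6.20 and 6.70 with the hairpins, and at 11.7 in the library labelled 5637 sh-NC against 4.70 and 2.14. RefSeq gives the name LNMAT1 to a pair of related pseudogenes, so this check may mix their reads. The library labelled 5637 sh-NC stood apart from the other 5637 libraries. CDKN2A was at 0.0102 FPKM in it against 22.8 and 34.8 in 5637 with sh-LNMAT1#1 and sh-LNMAT1#2, EPCAM at 0.0104 against 33.8 and 35.6, and CDH1 at 0.00924 against 19.2 and 14.1, while the 3 UM-UC-3 libraries held 0.00463 to 0.00996, 0.00945 to 0.0210 and 0.00301 to 0.00931 of these 3 genes. Its level of every one of the 10 keratins lay nearer to the UM-UC-3 mean than to the mean of the other 5637 libraries. It is called the library labelled 5637 sh-NC throughout, and results that rest on it are marked, with the value without it where a fit without it could be had.

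The letters before the start are shown for the 3 members that the promoter table used here held, and these differed in their levels: KRT5 was high in the 5637 sh-LNMAT1 libraries and near 0 elsewhere, KRT8 was present in every library, and KRT20 was at the counting floor in every library. The sequences are the 250 bases before the RefSeq start (GRCh38.p14), 5′ to 3′ on the strand of the gene, of KRT5 (chr12:52520395-52520644, minus strand), KRT8 (chr12:52926470-52926719, minus strand) and KRT20 (chr17:40885243-40885492, minus strand). Capitals mark the word ATAAAA, which resembles the TATA box and was chosen after the sequences had been read, or its form on the other strand, TTTTAT.
KRT5: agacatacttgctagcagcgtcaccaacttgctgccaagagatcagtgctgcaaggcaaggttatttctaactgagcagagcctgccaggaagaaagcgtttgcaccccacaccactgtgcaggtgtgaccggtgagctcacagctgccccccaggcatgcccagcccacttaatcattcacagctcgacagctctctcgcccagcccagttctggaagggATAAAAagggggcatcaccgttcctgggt
KRT8: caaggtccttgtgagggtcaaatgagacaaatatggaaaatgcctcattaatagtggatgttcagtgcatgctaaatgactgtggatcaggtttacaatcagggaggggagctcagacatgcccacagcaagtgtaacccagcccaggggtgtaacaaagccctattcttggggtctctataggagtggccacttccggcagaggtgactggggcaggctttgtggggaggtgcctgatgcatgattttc
KRT20: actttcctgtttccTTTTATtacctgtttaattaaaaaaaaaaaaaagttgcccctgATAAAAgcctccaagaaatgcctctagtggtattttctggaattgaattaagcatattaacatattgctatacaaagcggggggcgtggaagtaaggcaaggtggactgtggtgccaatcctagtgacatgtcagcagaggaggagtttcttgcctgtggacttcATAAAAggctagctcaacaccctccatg

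ATAAAA stood at positions -29 to -24 before the start of KRT5 and at -28 to -23 before that of KRT20, which held the word a second time at -193 to -188 and on the other strand at -236 to -231. KRT8 had no match in its window. That window lies well inside the gene as its position was deposited (chr12:52897187-52949954, minus strand). Bases before any other start of KRT8 were not searched, so whether they hold the word was not tested. Of the 35116 RefSeq promoter windows of this length, 14.8% held the word on either strand, and 1.65% held it on the strand of the gene 40 to 21 bases before the start. TATAAA (in 10.7% of the windows, both strands searched), the AP-1 word TGANTCA (6.57%), the GC box GGGCGG (42.6%) and the AP-2 word GCCNNNGGC (19.8%) had no match in these 3 windows. The word stood at almost the same distance from the start in KRT5 and in KRT20, one with 13687 and 24304 fragments in the 5637 sh-LNMAT1 libraries and the other with at most 2 in any library.

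**Figure D1:**
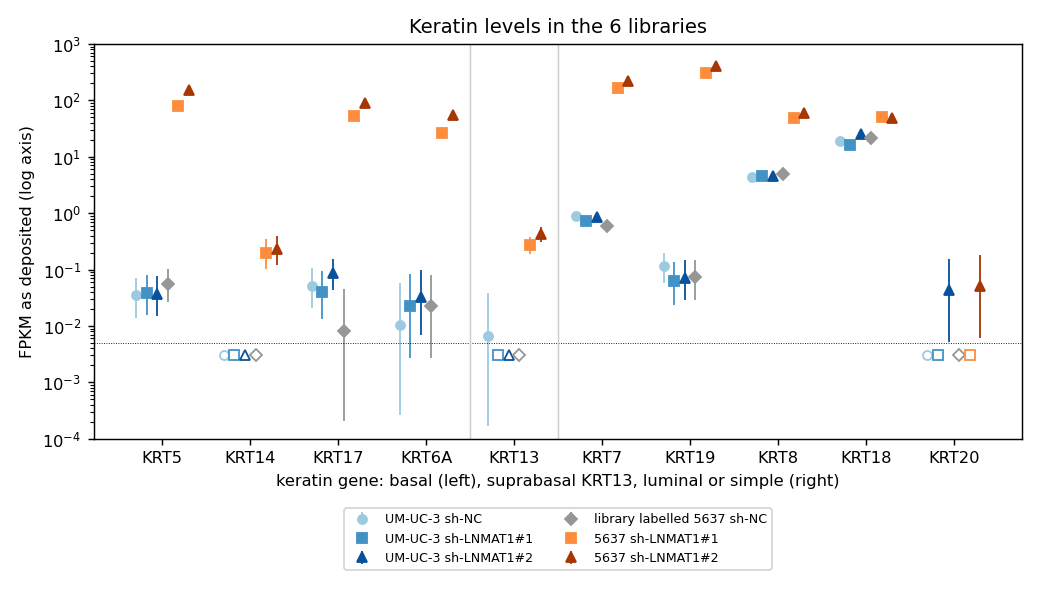
FPKM as deposited of each of the 10 keratins (horizontal axis) in each of the 6 libraries, on a logarithmic axis, with 95% exact Poisson intervals of the fragments behind each value, which cover counting error only; open symbols below the dotted line are libraries with 0 fragments. The 5637 sh-LNMAT1#1 and #2 libraries lie above the other 4 in every member except KRT20, and the library labelled 5637 sh-NC lies beside the UM-UC-3 libraries.

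The basal keratins KRT5, KRT17 and KRT6A were near 0 in the UM-UC-3 libraries and in the library labelled 5637 sh-NC, and abundant in 5637 with either sh-LNMAT1 hairpin, while the basal keratin KRT14 was low in all 6 libraries. KRT5, the type II keratin of basal cells, was at 0.0349, 0.0387 and 0.0376 FPKM in UM-UC-3 with the control, sh-LNMAT1#1 and sh-LNMAT1#2, which is 7 fragments in each library. It was at 0.0549 FPKM (10 fragments) in the library labelled 5637 sh-NC and at 81.1 and 155 FPKM (13687 and 24304 fragments) in 5637 with sh-LNMAT1#1 and sh-LNMAT1#2. The same split of 4 low and 2 high libraries was seen for the stress keratins. KRT17, a type I keratin of basal and stressed epithelium, was at 0.0511, 0.0405 and 0.0864 FPKM in the UM-UC-3 libraries in the same order, at 0.00804 (1 fragment) in the library labelled 5637 sh-NC, and at 52.1 and 89.4 in 5637 with the hairpins. KRT6A, a type II keratin induced in wounded epithelium, was at 0.0102, 0.0226 and 0.0330 FPKM in UM-UC-3 (1 to 3 fragments), at 0.0225 (2 fragments) in the library labelled 5637 sh-NC, and at 26.3 and 54.4 in 5637 with the hairpins. In each of these 3 genes the 5637 sh-LNMAT1 values were far above the values of the other 4 libraries. Differences of these 2 libraries were common. Against the library labelled 5637 sh-NC, 18.5% of 12791 genes were at least 2-fold higher in both and 12.3% lower. In such bulk libraries, fewer cells that make a keratin and less of its RNA per cell cannot be told apart.

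KRT14, the type I partner of KRT5 in basal cells, did not reach the levels of its partner. It had 0 fragments in the 3 UM-UC-3 libraries and in the library labelled 5637 sh-NC, where 3 fragments would be 0.0416 to 0.0462 FPKM, and 12 and 13 fragments (0.198 and 0.230 FPKM) in 5637 with sh-LNMAT1#1 and sh-LNMAT1#2. That is 4.28 and 5.13 times a floor of 3 fragments in the UM-UC-3 library with the same hairpin. Such ratios to the floor leave out the counting error of the higher count and are not lower limits. KRT13, the suprabasal type I keratin, was similar. It had 1, 0 and 0 fragments in UM-UC-3, 0 in the library labelled 5637 sh-NC, and 34 and 49 (0.273 and 0.422 FPKM) in 5637 with the hairpins. That is 12.1 and 19.3 times the floor in UM-UC-3 with the same hairpin. Both genes thus had fragments in the 5637 sh-LNMAT1 libraries at under 1 FPKM, in cells where KRT5 was at 81.1 and 155. KRT16, which shares sequence with KRT14, was at 0.914 and 1.14 FPKM there. Whether reads of KRT16 added to the KRT14 fragments was not tested.

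Among the luminal keratins, KRT7 and KRT19 followed the pattern of the basal genes. KRT19, a small type I keratin found throughout the urothelium, was at 0.113, 0.0629 and 0.0712 FPKM (12, 6 and 7 fragments) in UM-UC-3, at 0.0729 (7 fragments) in the library labelled 5637 sh-NC, and at 299.6 and 409 FPKM (26691 and 33948 fragments) in 5637 with sh-LNMAT1#1 and sh-LNMAT1#2. It was the most abundant member of both 5637 sh-LNMAT1 libraries. KRT7, a type II keratin of simple and transitional epithelium, was at 0.895, 0.736 and 0.867 FPKM (151, 112 and 136 fragments) in UM-UC-3, at 0.581 (89 fragments) in the library labelled 5637 sh-NC, and at 167 and 223 in 5637 with the hairpins. KRT7 was therefore measurable in all 6 libraries, but under 1 FPKM in 4 of them.

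KRT8 and KRT18, the simple-epithelial pair, were the only members at 1 FPKM or more in all 6 libraries. KRT8 was at 4.36, 4.50 and 4.65 FPKM in UM-UC-3 with the control, sh-LNMAT1#1 and sh-LNMAT1#2, at 4.90 in the library labelled 5637 sh-NC, and at 49.3 and 58.9 in 5637 with the hairpins. The 4 low values of KRT8 were close to each other, the highest 1.12 times the lowest. KRT18 was at 19.4, 15.9 and 25.2 FPKM in UM-UC-3, at 21.1 in the library labelled 5637 sh-NC, and at 50.9 and 49.0 in 5637 with the hairpins. KRT18 varied more among the low libraries, the highest being 1.59 times the lowest, and differed least between the lines. KRT20, the umbrella-cell keratin, had 2 fragments in UM-UC-3 with sh-LNMAT1#2, 2 in 5637 with sh-LNMAT1#2 and 0 in the other 4 libraries. All 6 values were under the level of 3 fragments, 0.0594 to 0.0758 FPKM, and KRT20 was not detectable above it at this depth in any library.

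Some of these fragments could belong to relatives of the members. Of the 50-base words in the exons of KRT6A, 32.1% also occurred in other genes, chiefly KRT6C (29.1%) and KRT6B (21.7%), and 16.8% of those of KRT14 did so, chiefly in KRT16 (7.89%). KRT18 shared 14.3% of its words over 43 genes and KRT8 10.1% over 142 genes, the first of which was the pseudogene KRT8P3 (5.49%). KRT17 shared 9.02%, KRT5 2.17%, KRT19 0.977%, KRT13 0.561% and KRT7 0.399%, and KRT20 shared none. KRT8 (chr12:52897187-52949954, minus strand) and KRT18 (chr12:52948871-52952901, plus strand), as their positions were deposited, overlap by 1084 bases. The library kit keeps strand, but whether the counting used it is not given in the sources used here. KRT6A, KRT14, KRT8 and KRT18 values are therefore less certain than those of KRT5, KRT7 and KRT19.

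A comparison between genes depended on the exon length by which fragments were divided. The deposited FPKM used the summed length of all distinct exons of a gene, in which overlapping exons of different transcripts count more than once, and for the members this was 1.18 (KRT20) to 6.69 (KRT8) times the length of the principal transcript. KRT8 was the most affected. For KRT7 and KRT17 the length was not read from the annotation but is the smallest that gave whole fragments in all 6 libraries, and a longer one would raise their fragments and their per-transcript levels. Per kilobase of principal transcript, scaled to depth in the same way, KRT8 stood at 330.1 and 395 in 5637 with sh-LNMAT1#1 and sh-LNMAT1#2 against 214.7 and 207 for KRT18, so that KRT8 was 1.54 and 1.91 times KRT18. By deposited FPKM it was 0.969 and 1.20 times KRT18. In the 3 UM-UC-3 libraries and the library labelled 5637 sh-NC, KRT18 was the higher of the pair on both scales, with KRT8 at 0.292 to 0.449 times KRT18 per principal transcript and at 0.184 to 0.283 times by deposited FPKM.

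On the principal-transcript scale the order of levels in 5637 with sh-LNMAT1#1 was KRT19 (923), KRT7 (649), KRT8 (330.1), KRT5 (259.95), KRT18 (214.7), KRT17 (175), KRT6A (45.2), KRT13 (0.962) and KRT14 (0.347), with KRT20 at 0. With sh-LNMAT1#2 it was KRT19 (1261), KRT7 (870.2), KRT5 (496), KRT8 (395), KRT17 (300.2), KRT18 (207), KRT6A (93.5), KRT13 (1.49), KRT14 (0.404) and KRT20 (0.0594). KRT19 and KRT7 came first and KRT6A, KRT13, KRT14 and KRT20 last in both, while KRT5 passed KRT8 and KRT17 passed KRT18 with the second hairpin. The order is that of these libraries only, since no library was repeated.

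The balance of the types differed between the 5637 sh-LNMAT1 libraries and the other 4. Over all 26 type II and 28 type I keratin genes, the summed deposited FPKM of type II was 0.323, 0.272 and 0.323 of that of type I in UM-UC-3, 0.245 in the library labelled 5637 sh-NC, and 0.820 and 0.888 in 5637 with the hairpins. Over the 10 members per principal transcript, the ratio was 0.399, 0.492 and 0.324 in UM-UC-3, 0.395 in the library labelled 5637 sh-NC, and 0.977 and 1.05 in 5637 with the hairpins. In the 5637 sh-LNMAT1 libraries the sums were thus near equal per principal transcript, while by deposited FPKM type I was still the larger. They were weighted further to type I in the other 4 libraries, on both scales. Among the members the type I sum of those 4 libraries was nearly all KRT18, while over all keratins KRT10 added 6.78 to 19.1 FPKM to it.

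**Figure D2:**
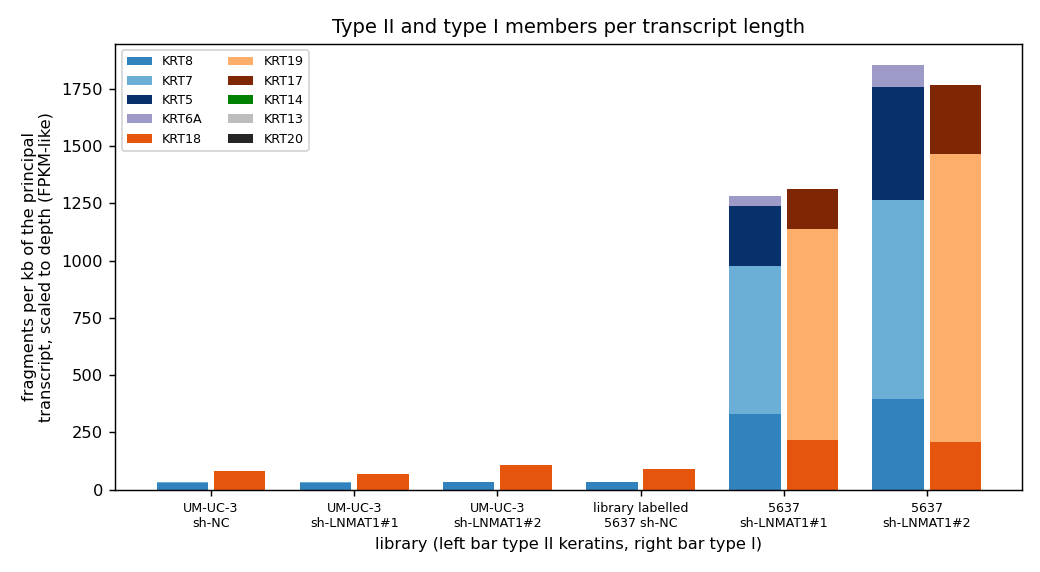
Fragments per kilobase of principal transcript, scaled to depth, summed over the type II members (left bar, blue and violet) and the type I members (right bar, orange and brown) in each library, with 1 segment per gene. The left bars are 0.324 to 0.492 of the right bars in the 3 UM-UC-3 libraries and the library labelled 5637 sh-NC, and 0.977 and 1.05 of them in 5637 with sh-LNMAT1#1 and sh-LNMAT1#2.

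The make-up of the pool differed as well. KRT8 and KRT18 together were 63.7%, 47.7% and 67.4% of all keratin FPKM in UM-UC-3 and 50.6% in the library labelled 5637 sh-NC, but 12.8% and 9.71% in 5637 with the hairpins. Per principal transcript and over the members only, the pair made up 96.4% to 97.8% in those 4 libraries and 21.0% and 16.6% in 5637 with the hairpins. There by deposited FPKM KRT19 alone made up 38.4% and 36.8%. KRT10, a type I keratin of differentiating epidermis that is no member, held much of the remainder in the low libraries, at 18.2%, 38.3% and 16.2% in UM-UC-3 and 37.2% in the library labelled 5637 sh-NC. The basal members KRT5, KRT6A, KRT14 and KRT17 made up 22.0% and 28.7% of the members' FPKM in 5637 with sh-LNMAT1#1 and sh-LNMAT1#2. All 10 members together took 0.451% and 0.641% of the fragments of these libraries and 0.0175% to 0.0240% of those of the other 4.

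The comparison of each hairpin with its control asked which keratins changed with depletion of LNMAT1. In UM-UC-3, only KRT8 and KRT18 averaged 1 FPKM or more across the 3 libraries, the level required to be read, and neither differed 2-fold with both hairpins. Over all 12025 genes read, 1.08% were called higher and 0.358% lower by that rule. KRT8 differed by 0.04 with sh-LNMAT1#1 and by 0.08 with sh-LNMAT1#2 on the log2(FPKM + 0.5) scale, which is 1.03-fold (95% counting interval 0.960 to 1.11) and 1.07-fold (0.992 to 1.15). KRT18 went in opposite directions with the 2 hairpins, at 0.822-fold (0.779 to 0.867) and 1.30-fold (1.24 to 1.37). These intervals cover counting error only, and with 1 library per condition the differences have no replicate check.

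The members under the filter in UM-UC-3 were read from few fragments. KRT7 was at 0.822 of the control with sh-LNMAT1#1 (0.638 to 1.06) and at 0.970 with sh-LNMAT1#2 (0.763 to 1.23). KRT19, on 12 control fragments, was at 0.554 (0.171 to 1.60) and 0.628 (0.210 to 1.73), and KRT5, on 7, at 1.11 (0.332 to 3.70) and 1.08 (0.322 to 3.60). KRT17, also on 7, was at 0.792 (0.198 to 2.90) and 1.69 (0.599 to 5.15). The intervals of KRT7, KRT19, KRT5 and KRT17 all included no change, and those of the last 3 also included a 2-fold change either way or in 1 direction. KRT6A, KRT13, KRT14 and KRT20 had at most 3 fragments in any UM-UC-3 library, too few for a fold. VIM, the intermediate filament gene of mesenchymal cells, was the member of the other intermediate filament list that passed the rule, at 332 FPKM in the control against 116 and 155 with the hairpins.

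**Figure D3:**
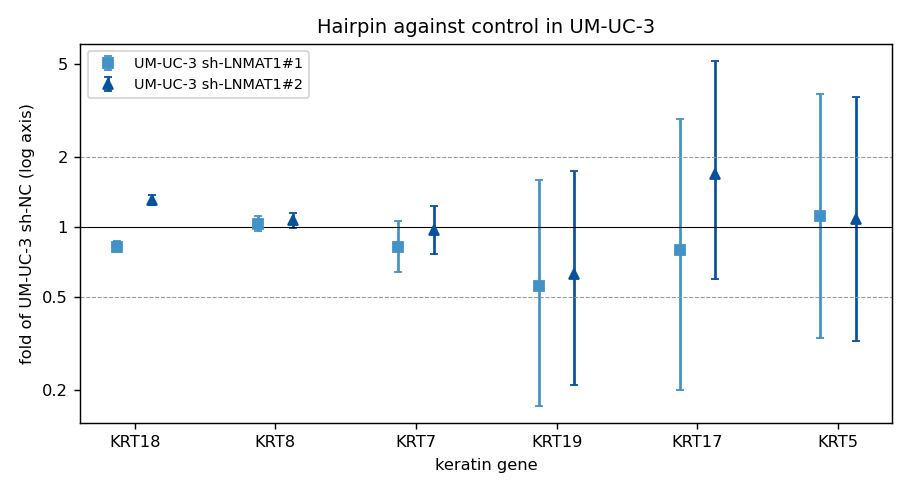
Fold of each UM-UC-3 sh-LNMAT1 library over UM-UC-3 sh-NC for 6 keratins, on a logarithmic axis, with 95% exact counting intervals; dashed lines mark a 2-fold difference. KRT18 lies at 0.822 and 1.30 on opposite sides of 1, KRT8 lies at 1.03 and 1.07, and the intervals of KRT19, KRT17 and KRT5 are wide because they rest on 5 to 12 fragments.

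In 5637 the same comparison used the library labelled 5637 sh-NC as the control, and KRT8 and KRT18, the members at 1 FPKM or more in every library, were over 2-fold higher with both hairpins, where 18.5% of the 12791 genes read were higher and 12.3% lower. The other 5 members read passed the filter only through the hairpin libraries, so that they could be read only if higher, and their folds are a description. KRT8 was 10.1-fold and 12.0-fold higher and KRT18 2.41-fold and 2.32-fold. KRT7 was 287-fold and 385-fold higher than in that library, and KRT19 4113-fold and 5616-fold. Since its keratin values lay beside those of UM-UC-3, these folds are close to the folds between the 5637 sh-LNMAT1 and the UM-UC-3 libraries below, and a change with the hairpin and a difference between lines cannot be told apart in it. No second 5637 control library was analysed here, so there is no 5637 comparison with control without it.

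The difference between the lines was tested among the 4 sh-LNMAT1 libraries, which leaves out both control libraries. KRT8 was 3.42 higher in 5637 (SE 0.20, 2 libraries per line) on the log2(FPKM + 0.5) scale, with an adjusted p of 0.000295 by limma, and in fragments it was 10.9-fold (10.4 to 11.6) and 12.7-fold (12.0 to 13.4) higher with sh-LNMAT1#1 and sh-LNMAT1#2. KRT18 was 1.29 higher (SE 0.27, adjusted p = 0.0161 by limma), and in fragments 3.20-fold (3.05 to 3.35) and 1.94-fold (1.86 to 2.02). Over all 12844 genes tested, 20.1% were higher and 18.4% lower in 5637 at an adjusted p under 0.05, so that a call for a single gene was common. With 1 library left out, the lone library of its line is assumed to vary like the pair of the other line. The KRT18 call was then lost without the 5637 sh-LNMAT1#1 library (1.27, adjusted p = 0.166 by limma) and without the 5637 sh-LNMAT1#2 library (1.32, adjusted p = 0.147), and held without the UM-UC-3 sh-LNMAT1#1 library (0.97, adjusted p = 0.0169) and without the UM-UC-3 sh-LNMAT1#2 library (1.62, adjusted p = 0.00683).

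Another 5 members reached the filter only through their 5637 values, so that they could enter the test only if they differed, and their values are a description. KRT19 was 9.27 higher (SE 0.23), KRT5 7.71 (SE 0.34), KRT7 7.22 (SE 0.23), KRT17 6.93 (SE 0.30) and KRT6A 6.18 (SE 0.37). In fragments, KRT19 was 4764-fold (2189 to 12983) and 5744-fold (2788 to 14289) higher than in UM-UC-3 with the same hairpin. KRT5 was 2094-fold (1016 to 5209) and 4112-fold (1996 to 10230) higher, and KRT17 1288-fold (552 to 3969) and 1034-fold (578 to 2072). KRT7 was 226-fold (188 to 275) and 258-fold (218 to 307) higher. KRT13, KRT14 and KRT20 did not pass the filter. The median over all genes tested was -0.016. With all 6 libraries by their labels, none of the 7 members read passed limma's test, at log2 differences of 0.90 to 6.15 and adjusted p of 0.217 to 0.225.

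Pooled over both lines, with the line as a term and the library labelled 5637 sh-NC among the controls, no member passed limma's test for knockdown against control, and 0 of the 12717 genes tested did (percent called 0 in each direction), although 473 were higher and 338 lower at an unadjusted p under 0.05. KRT19 was 4.57 higher with knockdown (SE 1.94), KRT5 3.84 (SE 1.61) and KRT18 0.64 (SE 0.36), with adjusted p of 0.569 for 6 members and 0.572 for KRT18. Without the library labelled 5637 sh-NC the differences of the 7 members lay between -0.11 and 0.06, and KRT7 (-0.10) and KRT19 (-0.11) changed sign. Without the UM-UC-3 sh-NC library, which leaves the library labelled 5637 sh-NC as the only control, KRT8 (3.33, adjusted p = 0.000896 by limma) and KRT18 (1.22, adjusted p = 0.0408) were called higher, as were 2114 of all genes, with 1911 lower. The other 5 members were also called there, but had passed the filter only through the 5637 sh-LNMAT1 libraries. The pooled result thus rested on which control library was kept.

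The test of whether the knockdown effect differed between the lines again used both controls. KRT8 was called, at a difference of 3.27 (SE 0.35, adjusted p = 0.00486 by limma; background 9.99% higher and 8.79% lower of 12717 genes). KRT18 was not called, at a difference of 1.17 (SE 0.46, adjusted p = 0.132 by limma). The other 5 members read were also called higher, but had passed the filter only through the 5637 sh-LNMAT1 libraries, which fixes that direction. Each of these differences sets a UM-UC-3 effect near 0 against an effect in 5637 that uses the library labelled 5637 sh-NC. That library cannot be left out of this test, because it is the only one with its label.

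The remaining keratins were mostly silent. Of 44 other keratin genes, 26 were under 0.1 FPKM in all 6 libraries, and of the 6 that could be tested between the lines 4 were higher in 5637 and none lower. Over all genes tested, 20.1% were higher and 18.4% lower. Only KRT80 and KRT10 were at a mean of 1 FPKM or more in the sh-LNMAT1 libraries of both lines. A gene that passes the filter through 1 line alone can be tested only if it is higher in that line. This holds here and in the lists below, and the difference of such a gene is a description. KRT23, a type I keratin, was at 11.7 and 23.9 FPKM in 5637 with the hairpins against 0.0127 or less in the other 4 libraries, a difference of 5.11 (SE 0.36). KRT80, a type II keratin, was at 25.4 and 18.4 FPKM in 5637 with the hairpins and at 1.88 to 4.11 elsewhere, a difference of 2.74 (SE 0.37, adjusted p = 0.00412 by limma). KRT6B (2.53) and KRT15 (1.05) were the other 2 called. KRT10 differed by 0.03 (SE 0.39, adjusted p = 0.958 by limma), at 10.8 and 11.5 FPKM in 5637 with the hairpins and 16.4 and 7.18 in UM-UC-3. It was at 6.78 in UM-UC-3 sh-NC and 19.1 in the library labelled 5637 sh-NC, so the lines overlapped in KRT10.

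KRT16, another partner of the KRT6 genes, was at 0.914 and 1.14 FPKM in 5637 with the hairpins and 0.0891 or less elsewhere, and KRT4, the usual partner of KRT13, was at 0.0707 and 0.0434 there and at 0 elsewhere. These 2 genes were not picked by the rule for named genes and are given as partners of members. Among 135 keratin pseudogenes in the table, 103 were under 0.1 FPKM in all libraries and 3 could be tested. KRT8P3, which shares words with KRT8, was 3.17 higher in 5637 (SE 0.21), close to the 3.42 of KRT8, while KRT8P12 was 1.41 lower there (log2 difference -1.41, SE 0.26).

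Other intermediate filament genes went both ways between the lines. Of 8 tested, 4 were higher in 5637 and 2 lower, beside 20.1% and 18.4% of all genes tested. Of the 4 at 1 FPKM or more in both lines, LMNB1 was higher and VIM lower. VIM was at 332, 116 and 155 FPKM in UM-UC-3, at 103 in the library labelled 5637 sh-NC, and at 3.85 and 4.14 in 5637 with the hairpins, a difference of -4.90 (SE 0.22, adjusted p = 0.000190 by limma). BFSP1, a lens filament gene, was also lower (-1.81), but passed the filter only through UM-UC-3. INA, a neuronal filament gene, was higher at 4.17, followed by NES at 2.42, SYNM at 1.53 and the nuclear lamina gene LMNB1 at 1.05. VIM was at 103 FPKM or more in the 4 libraries with KRT19 at 0.113 or less, and at 4.14 or less in the other 2. Of the other genes of the mesenchymal list, CDH2 (-1.13) was lower in 5637 like VIM. ZEB1 (-4.41) was lower too, but passed the filter only through UM-UC-3. FN1, fibronectin, was higher by 5.67 (SE 0.31, adjusted p = 0.000254 by limma), at 0.816 to 2.27 FPKM in the 4 other libraries and 109.6 and 102 in 5637 with the hairpins.

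Genes that attach keratin filaments to junctions or order them were tested between the lines as well. Of 13 tested, 8 were higher in 5637 and 3 lower, beside 20.1% and 18.4% of all genes tested. Of the 5 at 1 FPKM or more in both lines, 1 was higher and 2 lower. SFN, an adaptor protein of stratified epithelium, differed by 7.36, and JUP, the plakoglobin of desmosomes, by 7.09, from 0.155 and 0.0923 FPKM in UM-UC-3 to 77.8 and 91.3 in 5637. FAM83H, which guides a kinase to keratin filaments, differed by 6.02, and DSP, the desmoplakin that binds keratins to desmosomes, by 4.81. The 3 lower genes were DST (-1.80) and PLEC (-1.35), large cytolinkers that bind filaments at hemidesmosomes, and KLHL24 (-0.74), an adaptor for keratin degradation. KLHL24 passed the filter only through UM-UC-3. PLEC was at 15.0 FPKM or more in all 6 libraries, so the linkers, unlike most keratins, were in part shared by both lines.

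Of 16 tested transcription factors of epithelia, 13 were higher in 5637 and 1 lower, beside 20.1% and 18.4% of all genes tested. Of the 5 at 1 FPKM or more in both lines, 2 were higher and 1 lower. EHF (6.09), KLF5 (5.06) and GRHL2 (4.97) were among those higher, and KLF4 was lower (-0.89). TP63, the regulator of basal epithelial cells, was at 0.0788 to 0.238 FPKM in the 3 UM-UC-3 libraries and the library labelled 5637 sh-NC and at 11.7 and 13.9 in 5637 with the hairpins, a difference of 4.31 (SE 0.23). GATA3, a regulator of luminal urothelium, was at 0.292 to 0.594 FPKM in those 4 libraries and at 5.99 and 5.02 in 5637 with the hairpins, a difference of 2.68 (SE 0.25). Both passed the filter only through 5637. TP63 and GATA3 were thus highest in the libraries that held keratins of both classes.

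Marker lists bear on which cells the libraries held. The basal list of 7 genes, 4 of them members, summed to 217 and 374 FPKM in 5637 with the hairpins and to 19.2 to 24.9 in the other 4 libraries. The members gave 160 and 299 FPKM of the sums in 5637 with the hairpins. Of the other basal genes, TP63 and CDH3 were higher there, CDH3 at 39.5 and 43.0 FPKM against 0.0859 or less. CD44 was not, at 6.30 and 18.9 FPKM in 5637 with the hairpins and 19.0 to 24.6 elsewhere, where it was nearly all of the sum. The luminal list of 12, 5 of them members, summed to 592 and 765 FPKM against 26.1 to 32.5, with UPK1B at 0 in all 6 libraries and UPK3A at 0.0371 FPKM or less. Most of these luminal sums were again members, in 5637 with the hairpins chiefly KRT19 (299.6 and 409 FPKM) and KRT7 (167 and 223). Both lists thus largely restate the levels of the members. The other uroplakins differed in direction: UPK3B was at 2.63 and 1.91 FPKM in 5637 with the hairpins and 0.0322 or less elsewhere, UPK2 at 0.403 and 0.556 against 0.121 or less, and UPK1A at 0 and 0.0485 against 0.293 to 0.410. The squamous list of 7 summed to 16.6 and 33.7 FPKM in 5637 with the hairpins and to 6.79 to 19.2 elsewhere, with KRT1 at 0 in all libraries. KRT10 gave 10.8 and 11.5 FPKM of these sums in 5637 with the hairpins and 6.78 to 19.1 elsewhere. SPRR1B was at 1.47 and 13.3 FPKM in 5637 with the hairpins against 0, and IVL at 3.97 and 8.41 against 0.0828 or less. LOR was at 0.0365 FPKM or less in all libraries. Of the leukocyte list, PTPRC and CD3E were at 0.0108 FPKM or less in all libraries and CD68 was at 0.749 to 31.0, and the endothelial and muscle lists summed to 0.284 FPKM or less. The part of other cells in the keratin differences was not tested.

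The 5637 libraries with sh-LNMAT1#2 and sh-LNMAT1#1 were set side by side after their values had been seen, with 1 library each and no test. KRT5, KRT6A and KRT17 were at least 1.5-fold higher with sh-LNMAT1#2, 3 of the 7 members read, and none was lower. Over 12472 genes, 4.64% were higher by that much and 4.8% lower. KRT6A was 2.07-fold (95% counting interval 1.96 to 2.18), KRT5 1.91-fold (1.87 to 1.95) and KRT17 1.71-fold (1.66 to 1.77), the 3 basal or stress keratins. KRT19 (1.37-fold) and KRT7 (1.34-fold) were next, KRT8 was 1.20-fold, and KRT18 was 0.963-fold (0.930 to 0.996). KRT13 was 1.55-fold (0.979 to 2.47) and KRT14 1.16-fold (0.489 to 2.79), intervals that include no difference.

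Some genes outside the members, picked after their values were seen, were also higher with sh-LNMAT1#2. SPRR1B, a cornified-envelope gene, was at 1.47 and 13.3 FPKM with sh-LNMAT1#1 and sh-LNMAT1#2, and IVL, another, at 3.97 and 8.41. KRT23 (11.7 and 23.9 FPKM), KRT6B (1.52 and 4.32) and KRT81 (1.09 and 7.44) were the 3 of 7 other keratins read that were over 1.5-fold higher, and CD44, a receptor of basal cells, was at 6.30 and 18.9. Others were not: KRT80 was at 25.4 and 18.4 FPKM, TP63 at 11.7 and 13.9 and GATA3 at 5.99 and 5.02, and 0 of 12 linkers and 0 of 7 luminal markers read were 1.5-fold higher or lower. LINC01296 itself was at 4.70 and 2.14. Whether the hairpin, the degree of depletion or the culture moved with the keratins cannot be told apart with 1 library each.

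**Figure D4:**
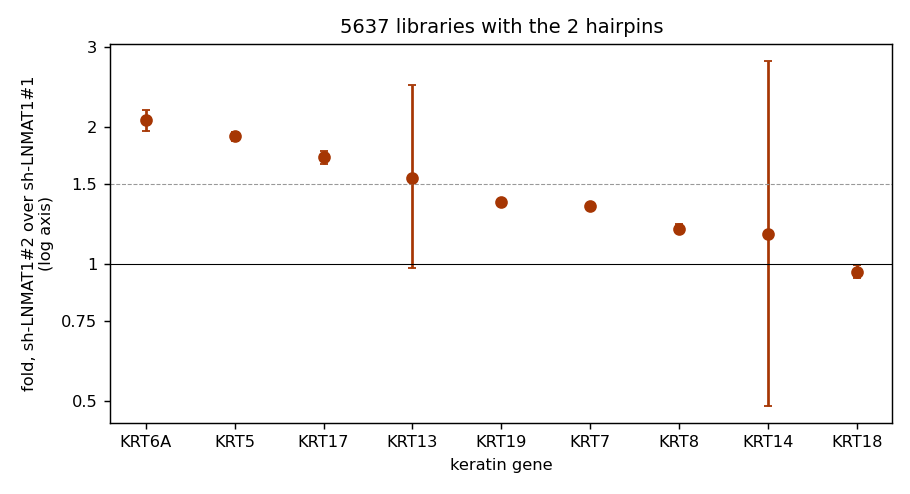
Fold of the 5637 sh-LNMAT1#2 library over the 5637 sh-LNMAT1#1 library for 9 keratins, on a logarithmic axis, with 95% exact counting intervals; the dashed line marks 1.5-fold. KRT6A, KRT5 and KRT17 lie above the dashed line with their whole intervals, KRT18 lies at 0.963, and KRT14 and KRT13 have intervals that include 1.

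The genes whose pattern was most like that of KRT5 and of KRT18 were found by Pearson's r of log2(FPKM + 0.5) over the 6 libraries, a description that includes the library labelled 5637 sh-NC and in which the split into 4 and 2 libraries weighs most. For KRT5 they were MTAP, CALB1, RP11-297P16.4, ADGRF1 and HOXA10-AS, at r of 0.99995 or more. MTAP, an enzyme of methionine salvage, was at 5.65 and 8.23 FPKM in 5637 with the hairpins and at 0.00428 or less in the other 4 libraries. As many as 546 genes reached r of 0.99 with KRT5, so that its pattern was shared widely. For KRT18 they were DHRS11 (0.999), VPS45 (0.997), CARS2 (0.996), TUBGCP5 (0.996) and EEF2 (0.995), and only 12 genes reached 0.99. EEF2, a translation elongation factor, was at 398, 375 and 447 FPKM in UM-UC-3, at 401 in the library labelled 5637 sh-NC, and at 546 and 550.4 in 5637 with the hairpins, so it had its lowest value with sh-LNMAT1#1 and its highest UM-UC-3 value with sh-LNMAT1#2, as KRT18 did. The other 6 members read had r of 0.997 or more with each other and 0.947 to 0.955 with KRT18.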

How the data were processed

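RNA of the 6 lines was taken with TRIzol and an RNeasy kit and made into stranded mRNA libraries (TruSeq). HISAT2 and hg38 are named in the submitters' processing notes; the counting program and its annotation are not given in the sources used here. The deposited values are FPKM, computed by the authors per gene and library, with no counts. Of 50869 genes in the table, 1 had no values and was left out. Fragments were recovered as FPKM multiplied by depth and by the summed length of distinct GENCODE 29 exons: of multi-exon values under 20 fragments, 95.7% to 96.2% were whole within 0.02 by this length, against 44.5% to 45.5% by merged exons. For KRT7 and KRT17, whose exons gave no whole fragments, the smallest length that did was used (6832 and 5545 bases). Intervals are 95% exact Poisson or exact ratio intervals, and the floor was 3 fragments. Both cover counting error only.

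Groups came from the labels. Differences were taken on log2(FPKM + 0.5), a scale on which changes of weakly expressed genes come out too small, over genes averaging 1 FPKM or more in the libraries compared, and tested with limma 3.58.1 (R 4.3.3) with a trend and Benjamini-Hochberg adjustment over all genes tested, at an adjusted p under 0.05. In the test between the lines among the sh-LNMAT1 libraries, p-values measure only the spread between libraries that carry different hairpins in the same line. The same holds for the test of whether the knockdown effect differed between the lines. In the pooled test, the spread also takes in any difference of the knockdown effect between the lines. In the test between the lines with all libraries by their labels, the spread also takes in how control libraries differ from sh-LNMAT1 libraries. The fit was tested on simulated data. The other steps used Python 3.11.15 with scipy 1.17.1. Genes were named as all 10 members, at most 4 per other list and direction by the size of a called line difference, a fixed few (VIM, TP63, GATA3, LINC01296, CDKN2A, EPCAM, CDH1), marker genes, and the 5 genes most like KRT5 and KRT18. KRT16, KRT4, SPRR1B, IVL, CD44, KRT81, KRT10, KRT23 beside the hairpins, FN1, the uroplakins and the pseudogenes were named after their values were seen. The members and lists were chosen with earlier results of these data known. Alternatives were other pseudocounts, filters, scaling, fits without a trend, single libraries left out, and the length of the longest APPRIS principal transcript, the last chosen after seeing the data. Promoter sequences are from a RefSeq table (GRCh38.p14), in which 3 of the 10 members were matched; the others were not analysed here.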

Additional observations from a re-analysis of the deposited data

Results flagged for a closer look

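The knockdown effect, as log2(FPKM + 0.5) of the sh-LNMAT1 libraries minus their control, differed between the lines in 6 members by limma's interaction test, and each of these values rests on the library labelled 5637 sh-NC. For KRT8 the difference was 3.27 (adjusted p = 0.00486), from 3.33 in 5637 and 0.06 in UM-UC-3. The other 5 members passed the filter only through the 5637 sh-LNMAT1 libraries, which fixes their direction, and are given as values: 9.37 for KRT19, from 9.26 in 5637 and -0.11 in UM-UC-3, 7.65 for KRT5, 7.59 for KRT7, 7.05 for KRT17 and 6.15 for KRT6A.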

How the results depend on the processing

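Of the results that answer a comparison, the counts of members called in UM-UC-3 (0), in 5637 against its labelled control (7) and in the interaction (6) stayed within 1.5 times under every alternative run. In the last 2, 5 of the members were read only through the 5637 sh-LNMAT1 libraries. Over the libraries left out 1 at a time, the pooled difference ranged from -0.10 to 7.48 for KRT7 and from -0.11 to 9.26 for KRT19, negative without the library labelled 5637 sh-NC and highest without UM-UC-3 sh-NC, and the pooled count of members called higher ranged from 0 to 7, 7 being reached without UM-UC-3 sh-NC. The line difference called 7 members in the main fit, 8 with no filter on low values, and 0 with all 6 libraries by label. Of the 7, 5 passed the filter only through their 5637 values, which fixes their direction, and only KRT8 and KRT18 were read in both lines. Over all genes tested in the main fit, 20.1% were higher and 18.4% lower. With no filter, adjusted p by limma was 0.0606 for KRT18 between the lines and 0.0513 for KRT6A in the interaction. The ratio of type II to type I over the 10 members only was 0.272, 0.331 and 0.220 in UM-UC-3 with the control, sh-LNMAT1#1 and sh-LNMAT1#2, 0.262 in the library labelled 5637 sh-NC and 0.802 in 5637 with sh-LNMAT1#1. Per principal transcript it was 0.399, 0.492 and 0.324 in UM-UC-3 in the same order, 0.395 in the library labelled 5637 sh-NC, and 0.977 and 1.05 in 5637 with the hairpins. With the hairpin number as a block, 7 members were again called between the lines and none lower, and the block changed no other call. The same 5 of these members were read only through their 5637 values. The pooled and interaction fits could not take this block, since sh-NC has no hairpin number. Depth limits KRT13, KRT14 and KRT20, and 1 library per condition limits every comparison with a control.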
